A study of Strongylocentrotus purpuratus with 191 samples.

Results

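FoxB, FoxO and Foxn2-3 are 3 forkhead transcription factor genes of the purple sea urchin, *Strongylocentrotus purpuratus*, and were measured here in embryos collected at the mid-gastrula stage. The members are every probe that the gene column of the authors' normalized table gives to these names, 6 probes for each gene and 18 of the 336 probes of 74 genes in all. Total RNA came from 191 cultures of 32 crosses, in which 8 females and 8 males were mated in 2 blocks of 4 by 4 parents. Each cross was grown at 12C, 15C and 18C with 2 replicate cultures, except that female C4 by male D4 at 15C had 1 culture. The parents carry a letter and their block (female A4 and male A4 are different animals), and no embryo carried a named allele or a treatment other than the temperature. By its title the series asks how far heredity shapes the expression response to thermal stress, and the crosses separate growth temperature from mother (dam) and father (sire).

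Forkhead proteins bind DNA through a winged-helix domain and act as transcriptional regulators in all animals. In the sea urchin embryo the 3 genes are counted among the regulators of the skeletogenic mesenchyme, the cells that leave the vegetal plate and build the larval skeleton. The Foxn2-3 protein is needed for normal ingression and skeleton formation by these cells in another sea urchin, *Lytechinus variegatus*. FoxO proteins are held in the cytoplasm after phosphorylation by Akt when insulin signalling is active, as known from worms, flies and mammals.

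The panel read each gene through short designed targets, the sequence in which a pair of oligonucleotides is joined on the cDNA before amplification. The probes below are those on which the results turn. Capitals mark the longest run of at least 10 bases that a probe has in common with a probe of another gene on either strand. A sequence with no capitals has no such run. The first set is the FoxB target set, shown because all 6 were lower on average at 18C than at 12C.
FoxB probe 1671: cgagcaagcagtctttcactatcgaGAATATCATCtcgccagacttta
FoxB probe 3968: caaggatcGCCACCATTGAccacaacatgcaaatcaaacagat
FoxB probe 4125: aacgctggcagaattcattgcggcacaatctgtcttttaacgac
FoxB probe 4974: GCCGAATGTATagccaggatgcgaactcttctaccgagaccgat
FoxB probe 5257: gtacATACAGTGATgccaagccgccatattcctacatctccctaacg
FoxB probe 5350: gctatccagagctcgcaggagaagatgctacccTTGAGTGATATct

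From FoxO, the pair of probes that separated the fathers in opposite directions is shown with the probe of the highest mean signal.
FoxO probe 4041: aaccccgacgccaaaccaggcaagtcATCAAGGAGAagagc
FoxO probe 5930: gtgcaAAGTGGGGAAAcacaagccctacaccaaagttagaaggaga
FoxO probe 3498: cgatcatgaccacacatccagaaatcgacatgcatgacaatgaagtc

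From Foxn2-3, the pair labelled exon 1 is shown because these probes followed each other closely, with the probes labelled exon 6 and exon 8 that did not follow them.
Foxn2-3 probe 5076: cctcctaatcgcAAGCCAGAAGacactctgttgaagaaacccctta
Foxn2-3 probe 5285: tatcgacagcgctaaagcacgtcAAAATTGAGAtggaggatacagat
Foxn2-3 probe 5052: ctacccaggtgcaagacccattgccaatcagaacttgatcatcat
Foxn2-3 probe 5177: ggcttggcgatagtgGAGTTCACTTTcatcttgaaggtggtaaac

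No member probe had more than 11 bases in a row in common with a probe of another gene, where the longest such run on the panel was 24 bases. Of all 336 probes, 68.2% held a run of 10 bases or more, so the capitals set no member apart. The probe labels place all 6 probes of FoxB and of FoxO in exon 1, and those of Foxn2-3 in exons 1, 6, 7 and 8.

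A value below is log2 expression from the normalized table that the authors deposited, where each probe is centred on 0 within its plate, and a gene's value is the mean of its 6 probes. Each block filled its own plate. Block therefore cannot be told apart from plate, and levels can be compared within a plate only. The mean sampling time was 37.5 at 12C, 28.4 at 15C and 23.1 at 18C, with no unit in the labels. The culture stage score averaged 0.328, 0.359 and 0.358 in the same order, on a scale that is also not stated. Plate rows nearly followed temperature. Before normalization the array medians of block 4 averaged 12.2 (log2) at each temperature, while those of block 3 had means of 9.65 (12C), 9.95 (15C) and 10.0 (18C). Of the defining genes for skeletogenic mesenchyme 6 of 6 were on the panel, and 5 of them had a probe detected in most cultures of both blocks, Alx1 being the exception. For gut and oral ectoderm all 4 of 4 genes each were detected, and for pigment cells and mesoderm the 2 measured of 3 were. For aboral ectoderm none of the 4 listed genes was on the panel, so that tissue was not checked. In such whole-embryo RNA, fewer cells of a type and less RNA per cell cannot be told apart.

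The 3 genes differed in how far they stood above background. Over the negative controls of the same array, FoxO averaged 4.27 log2 units in block 4 and 2.70 in block 3, FoxB 3.04 and 1.67, and Foxn2-3 2.95 and 1.59, against panel medians of 4.14 and 2.42. These signals depend on each probe's own efficiency and do not order the genes by abundance. All 6 FoxO probes were detected, which means that under 0.05 of the 27 negative controls reached the probe's value, in at least 90.5% of cultures of each block. FoxB probe 4974 was detected in 27.4% of block 4 and 30.2% of block 3 cultures. Foxn2-3 probe 5052 was detected in 7.37% of block 4 and 6.25% of block 3 cultures, and probe 6131 in 31.6% and 44.8%. The SD between replicate cultures was 0.23 for FoxB, 0.32 for FoxO and 0.20 for Foxn2-3, against a median of 0.19 over the 74 genes.

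**Figure D1:**
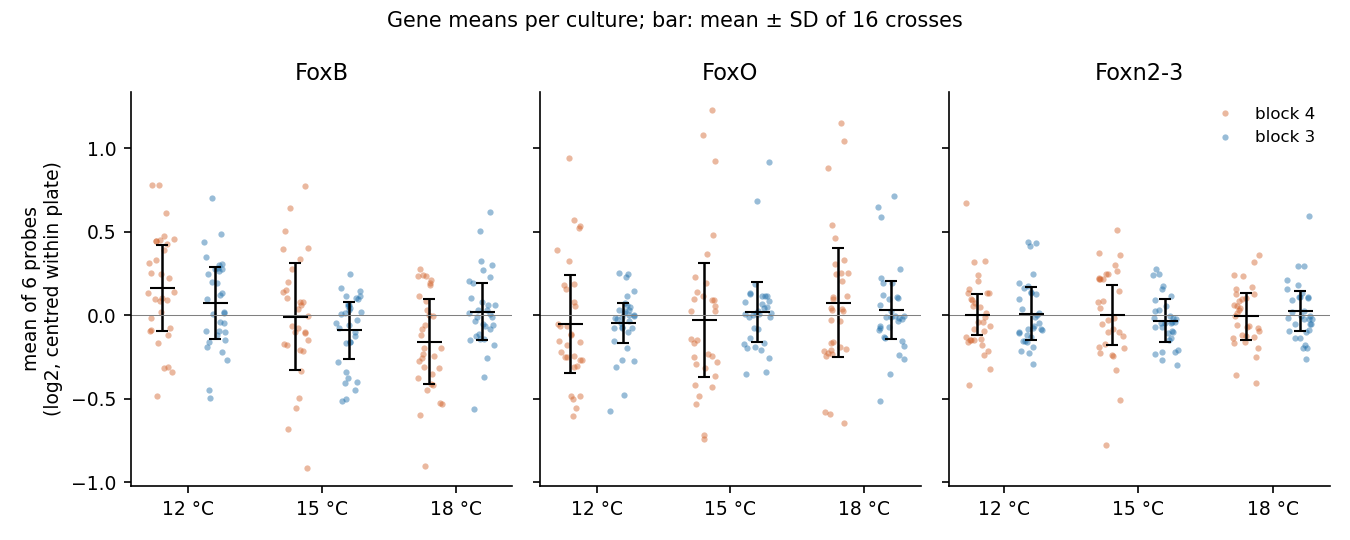
Gene means of FoxB, FoxO and Foxn2-3 (log2, centred within plate) at 12C, 15C and 18C, with 1 point per culture, block 4 left of block 3, and the mean ± SD of 16 crosses in black. FoxB lies lowest at 18C in block 4 (mean -0.16), and for each gene the ranges of cultures overlap between temperatures.

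FoxB was lower in embryos grown warmer. Its values ran from -0.49 to 0.78 with a median of 0.11 in the 64 cultures at 12C, from -0.91 to 0.78 with a median of -0.03 in the 63 cultures at 15C, and from -0.91 to 0.62 with a median of -0.05 in the 64 cultures at 18C. The ranges overlap almost wholly, and the shift shows within crosses. At 18C against 12C, FoxB fell by 0.19 ± 0.05 on the log2 scale (SE; 95% interval -0.29 to -0.08; limma on the means of 96 combinations of cross and temperature, blocked by cross, adjusted p = 0.00556 over 74 genes), and it was lower in 23 of 32 crosses. At 15C against 12C it fell by 0.17 ± 0.05 (adjusted p = 0.0389) and was lower in 26 of 32 crosses. Between 18C and 15C the difference was -0.02 ± 0.05 (95% interval -0.12 to 0.08, adjusted p = 0.847). At 18C against 12C 17.6% of genes were called, 6.76% lower and 10.8% higher. At 15C against 12C 4.05% were called, 2.70% higher and 1.35% lower, the last being FoxB alone. At 18C against 15C 4.05% were called.

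The call at 18C against 12C was lost without female A4 (adjusted p = 0.0539), without female B4 (0.0604), without male A4 (0.0505), without replicate 2 (-0.14, adjusted p = 0.148) and with the brightest probe in place of the mean (-0.13, adjusted p = 0.18). With plate row as a term, fitted on the 191 single cultures, the difference was -0.36 ± 0.12 (adjusted p = 0.0631). The median over all genes was -0.10 there. The call at 15C was lost under 23 of 32 alternatives, without replicate 2 with a difference of -0.09. With the stage score as a covariate FoxB differed by -0.17 ± 0.05 at 18C against 12C (adjusted p = 0.0237), and with each array's median removed by -0.20 ± 0.04 (adjusted p = 0.000232).

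The decrease of FoxB at 18C was called in block 4 and not in block 3. FoxB differed between 18C and 12C by -0.32 ± 0.08 in block 4 (adjusted p = 0.00362, lower in 14 of 16 crosses; 10.8% of genes called, 1.35% lower), against -0.05 ± 0.06 in block 3 (adjusted p = 0.84, lower in 9 of 16; 5.41% called, 4.05% lower). In block 4 the medians at 12C, 15C and 18C were 0.14, -0.00 and -0.20. In block 3 they were 0.06, -0.04 and -0.00. By these medians the block 4 series steps down at both temperatures, and the block 3 series dips at 15C. The step from 15C to 18C was called in neither block. It was -0.15 ± 0.08 in block 4 (adjusted p = 0.202) and 0.11 ± 0.06 in block 3 (adjusted p = 0.185). At 15C against 12C the blocks had nearly the same difference, -0.17 ± 0.08 in block 4 and -0.16 ± 0.06 in block 3, neither called alone (adjusted p = 0.129 in each; 6.76% of genes called in block 4 and 0% in block 3).

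The test of the difference between blocks gave F = 5.22 on the 2 temperature steps (adjusted p = 0.0487), where 16.2% of genes were called. Block 4 minus block 3 was -0.27 ± 0.10 for the step between 12C and 18C (adjusted p = 0.214) and -0.01 ± 0.10 for the step between 12C and 15C. This call lay close to the threshold and was lost under 18 of 27 alternatives, among them each of 11 parents and either replicate left out. FoxO (F = 0.44, adjusted p = 0.733) and Foxn2-3 (F = 0.58, adjusted p = 0.701) were not called.

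By mother, the change of FoxB at 18C against 12C averaged -0.58 ± 0.38 (SD, n = 4 crosses) for B4, -0.34 ± 0.14 for A4, -0.21 ± 0.09 for C4 and -0.16 ± 0.48 for D4 in block 4. In block 3 it averaged -0.37 ± 0.25 for C3, -0.09 ± 0.18 for B3, 0.11 ± 0.22 for D3 and 0.15 ± 0.23 for A3. All 4 crosses of A4, B4, C4 and C3 were lower at 18C, and 3 of 4 crosses of A3 and D3 were higher. The most negative cross was female B4 by male D4, at -0.91, and the most positive was female D3 by male D3, at 0.36. These differences between mothers did not pass the dam-by-temperature test (F = 1.60, adjusted p = 0.621), nor did those between fathers (F = 0.95, adjusted p = 0.996), and 0% of genes were called by either test.

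**Figure D2:**
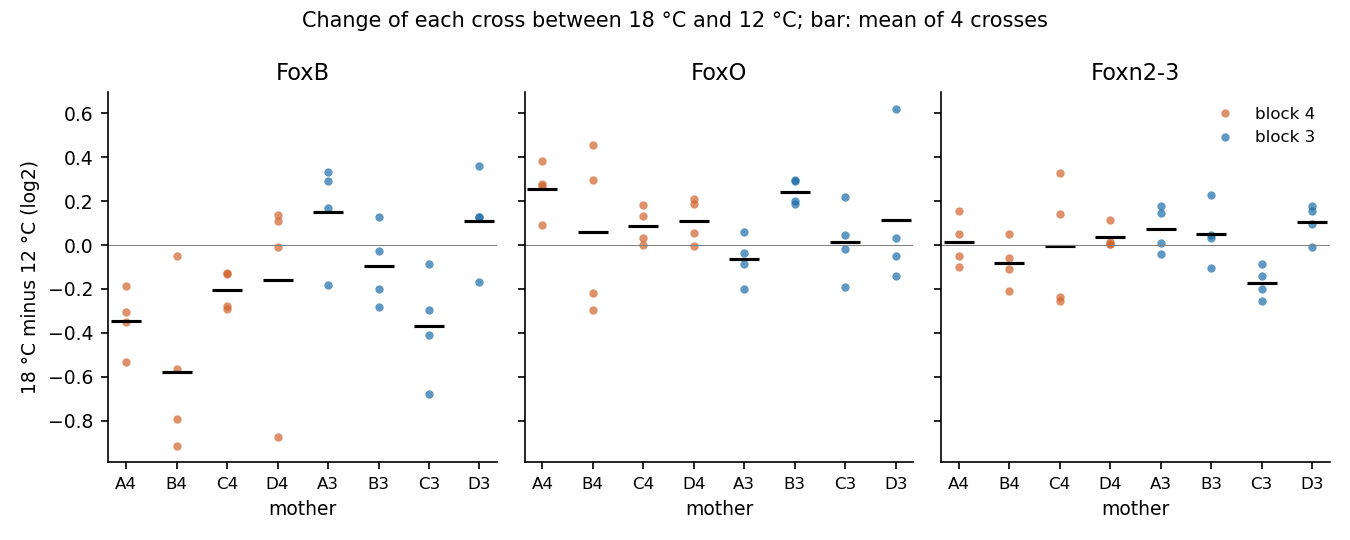
Difference between 18C and 12C (log2) of each cross for FoxB, FoxO and Foxn2-3, by mother, block 4 left of block 3, with the mean of 4 crosses in black. For FoxB, all 16 crosses of mothers A4, B4, C4 and C3 lie below 0.

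All 6 FoxB probes had a mean difference below 0 at both warmer temperatures, but single crosses did not all follow. At 18C against 12C the differences lay between -0.29 ± 0.13 (probe 4125) and -0.13 ± 0.06 (probe 1671). At 15C against 12C they lay between -0.25 ± 0.08 (probe 5257) and -0.09 ± 0.13 (probe 4125). The probes were lower in 17 (probe 1671) to 25 (probe 5257) of 32 crosses at 18C, and in 16 (probe 4125) to 24 (probe 5257) at 15C. None was called by itself over 336 probes (adjusted p between 0.144 and 0.205 at 18C), where 8.93% of probes were called, 3.87% lower and 5.06% higher. At 15C against 12C 0.595% of probes were called, none of them a member. Probe correlations were taken over the 96 cross-by-temperature means, with each array's median over all genes removed and each block centred. The probe pairs of FoxB had a median r of 0.308, from -0.01 for 4125 with 4974 to 0.594 for 5257 with 5350. The median of such medians over the other 71 genes was 0.170. These r share arrays and are given as a description. Single cultures stood far out for some probes, the farthest at -3.87 for probe 5257 at 15C in block 4. Probe 4125 was detected in 81.05% of block 4 and 56.25% of block 3 cultures.

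**Figure D3:**
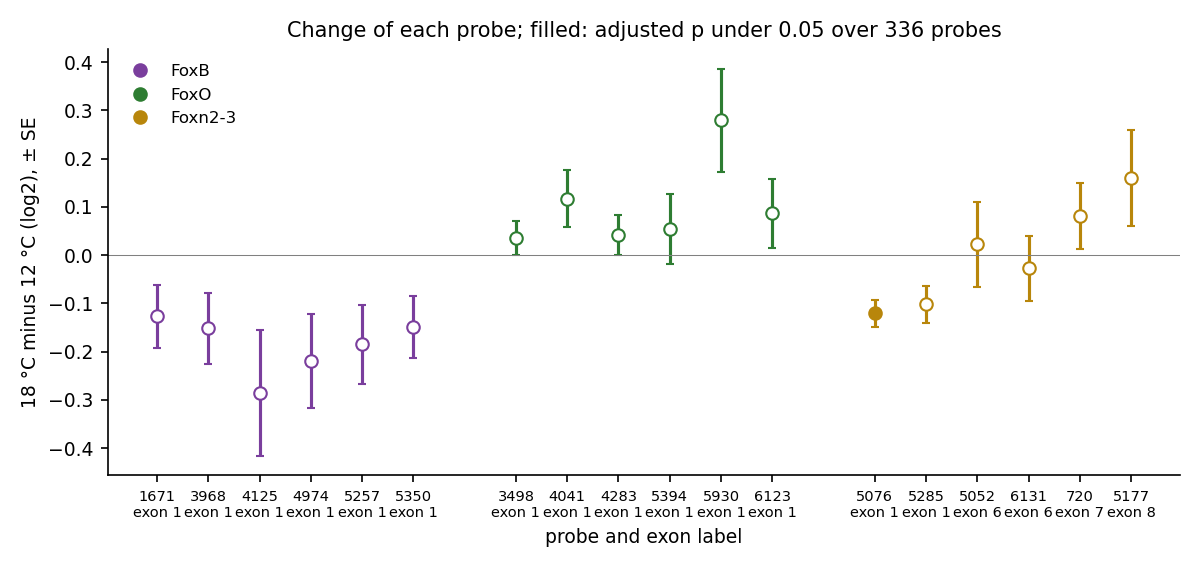
Difference between 18C and 12C (log2, ± SE) of each of the 18 member probes, in the order FoxB, FoxO, Foxn2-3, with filled symbols for adjusted p under 0.05 over 336 probes. The 6 FoxB probes lie below 0, the 6 FoxO probes above 0, and Foxn2-3 probe 5076 is the filled one, at -0.12.

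FoxB varied with both parents. The sire effect had F = 14.1 (adjusted p = 2.92e-05, the third lowest p of 74 genes; 75.7% of genes called) and the dam effect F = 8.88 (adjusted p = 0.00025; 81.1% called), so a call by itself does not set FoxB apart. Without replicate 1 the dam effect lost its call (F = 3.25, adjusted p = 0.055). Relative to the block mean, the 4 crosses of father D4 were at 0.23, 0.27, -0.02 and 0.26 with mothers A4, B4, C4 and D4. Those of father B4 were at 0.09, 0.19, 0.11 and 0.09, those of C4 at -0.05, 0.11, -0.33 and 0.07, and those of A4 at -0.38, -0.16, -0.29 and -0.18. Every cross of father A4 was below every cross of fathers B4 and D4, and the share of genes with such a separation was not counted. The means were 0.18 for D4, 0.12 for B4, -0.05 for C4 and -0.25 for A4, a range of 1.36-fold that was the fourth widest of 74 genes among block 4 fathers (median 1.12-fold). Father D4 was the highest of these fathers for 47 of 74 genes, and A4 the lowest for 14. Within that order D4 and B4, and B4 and C4, lay no farther apart than the larger SD of the pair.

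In block 3 the mothers separated FoxB more than the fathers did. Mother C3 averaged 0.10, D3 0.08, B3 -0.01 and A3 -0.17, a range of 1.21-fold. The crosses of A3 lay between -0.23 and -0.09, and those of C3 and D3 between -0.01 and 0.19. Block 3 alone gave a dam F of 16.1 (adjusted p = 0.000541; 36.5% of genes called) and a sire F of 3.13 (adjusted p = 0.088; 45.9% called). Block 4 alone gave a dam F of 5.29 (adjusted p = 0.0312; 59.5% called) and a sire F of 18.8 (adjusted p = 0.00158; 35.1% called). Whether the parental effects differ between blocks was not tested.

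In a REML fit over all cultures, sires took 20.4% of the variance of FoxB, dams 9.39% and dam by temperature 6.93%, with 62.0% left as residual. The medians over genes were 8.01% for sires, 10.1% for dams and 73.8% for the residual. Taken 1 temperature at a time, the dam effect of FoxB was called at 12C (adjusted p = 0.0225; 21.6% of genes called) and at 15C (0.0311; 45.9%) but not at 18C (0.331; 14.9%). The sire effect was called at 15C (adjusted p = 0.0145; 9.46%) and not at 12C (0.221; 9.46%) or 18C (0.0763; 16.2%).

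FoxO separated the mothers of block 4 most widely of all 74 genes. Relative to the block mean, the crosses of mother B4 were at 0.35, 0.26, 0.13 and 0.51 with fathers A4, B4, C4 and D4. Those of mother D4 were at 0.05, -0.06, 0.15 and 0.14, those of A4 at -0.10, 0.07, -0.28 and 0.05, and those of C4 at -0.37, -0.38, -0.22 and -0.29. Each cross of C4 was below each cross of B4 and D4, and the share of genes with such a separation was not counted. The means were 0.31, 0.07, -0.06 and -0.32, a range of 1.55-fold (panel median 1.13-fold). D4 and A4 lay within their SD of each other, and the other neighbours did not.

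**Figure D4:**
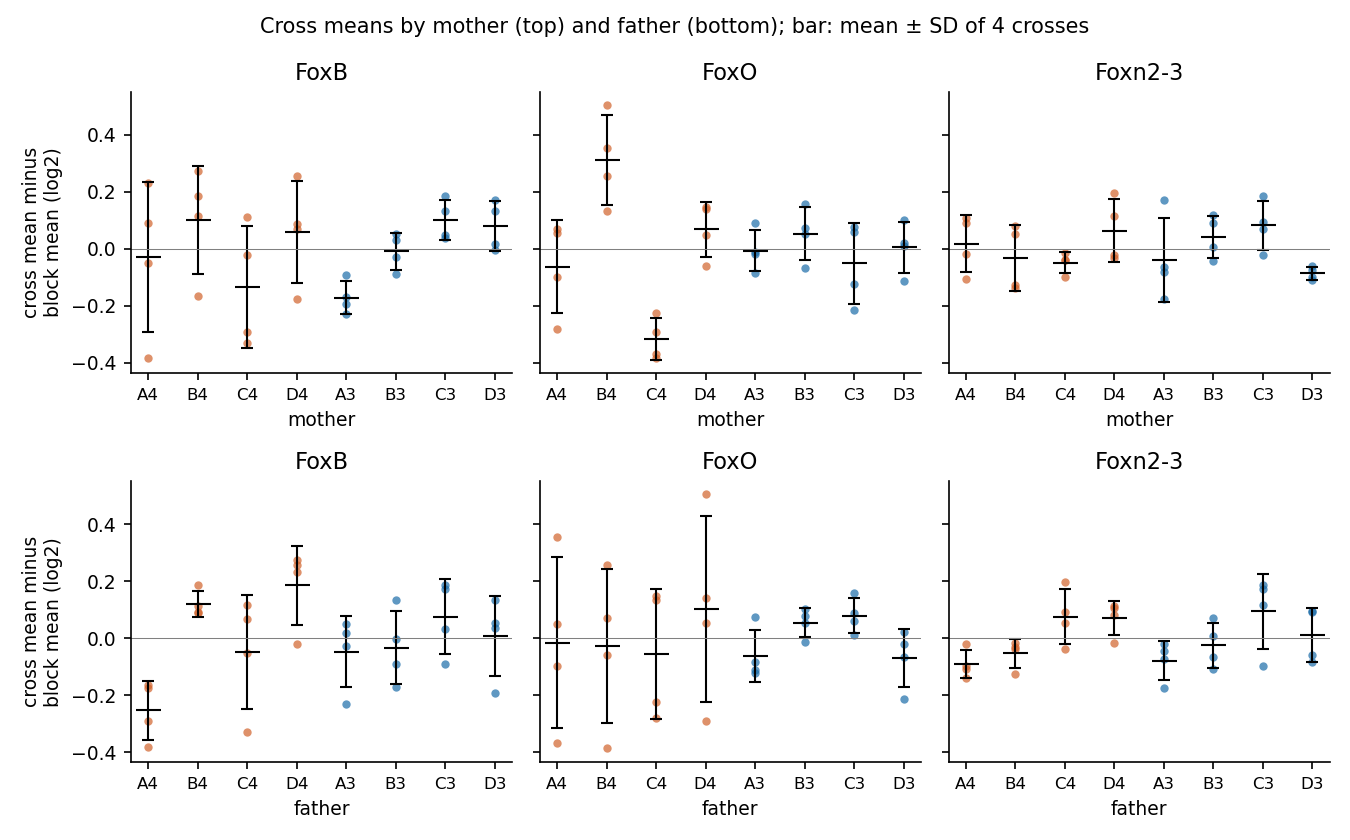
Cross means minus the block mean (log2) of FoxB, FoxO and Foxn2-3 by mother (top) and by father (bottom), block 4 left of block 3, with the mean ± SD of 4 crosses in black. FoxO mothers B4 and C4 lie at 0.31 and -0.32, and FoxB fathers D4 and A4 at 0.18 and -0.25.

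The dam effect of FoxO had F = 14.8 (adjusted p = 9.53e-06), the sixth lowest p of the panel, where 81.1% of genes were called. It was called in block 4 alone (F = 21.7, adjusted p = 0.00056), where 59.5% of genes were. In block 3 alone, where 36.5% of genes were called, it was not (F = 1.29, adjusted p = 0.365). The mothers of block 3 spanned 1.07-fold. Whether the dam effect of FoxO differs between blocks was not tested. Mother B4 was the highest mother for 43 of 74 genes and C4 the lowest for 42, counted separately. B4 was the highest and C4 the lowest mother at 12C (0.38 and -0.28), at 15C (0.24 and -0.34) and at 18C (0.31 and -0.32), although B4 stood no more than the larger SD above the next mother at 15C and 18C. By temperature the dam effect was called at 12C (adjusted p = 0.0016; 21.6% of genes called) and 15C (0.0305; 45.9%) and not at 18C (0.0705; 14.9%). FoxO was not called by the dam-by-temperature test (F = 0.75, adjusted p = 0.864). Dams took 25.7% of the variance of FoxO (panel median 10.1%) and sires 1.39%.

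The sire effect on the FoxO gene mean was not called (F = 2.29, adjusted p = 0.0818), but it was called for single probes. All 6 FoxO probes were called for dams, where 61.3% of probes were. For sires 3 were called, 4041 (F = 9.75, adjusted p = 0.00046), 5930 (F = 8.65, adjusted p = 0.000843) and 4283 (F = 4.75, adjusted p = 0.0111), where 51.8% of probes were. Probes 4041 and 5930 separated the fathers in opposite directions. Measured against the FoxO mean of the same array, probe 4041 averaged 0.39 ± 0.05 (SD, n = 4 crosses) in father A4's crosses, 0.13 ± 0.17 in B4's, -0.15 ± 0.24 in C4's and -0.37 ± 0.20 in D4's. Probe 5930 averaged -0.55 ± 0.27 in A4's, -0.11 ± 0.30 in B4's, 0.25 ± 0.07 in C4's and 0.42 ± 0.17 in D4's. For both probes the 4 crosses of A4 and the 4 crosses of D4 did not overlap. How many of the 336 probes separate these fathers in this way was not counted.

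These deviations differed between sires with F = 22.6 for probe 4041 (adjusted p = 4.4e-06) and F = 16.9 for probe 5930 (adjusted p = 3.62e-05). Of all probe deviations, 36.9% were called. The pair was picked for the lowest sire p among member probes in this same test, so its F values and alternatives are descriptions. FoxB probes 3968 and 4125 and Foxn2-3 probes 5052, 5076 and 5285 were also called. In block 3 the fathers spread less. There, probe 4041 averaged between -0.21 (A3) and 0.10 (D3), and probe 5930 between -0.13 (B3) and 0.11 (A3). The deviation of probe 4041 was called under all 26 alternatives tried, and that of probe 5930 under 25, the exception being block 3 alone (F = 2.10, adjusted p = 0.303). A probe's deviation is measured against a mean that holds the probe itself, and with probes that move apart the deviations of the pair are not independent.

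**Figure D5:**
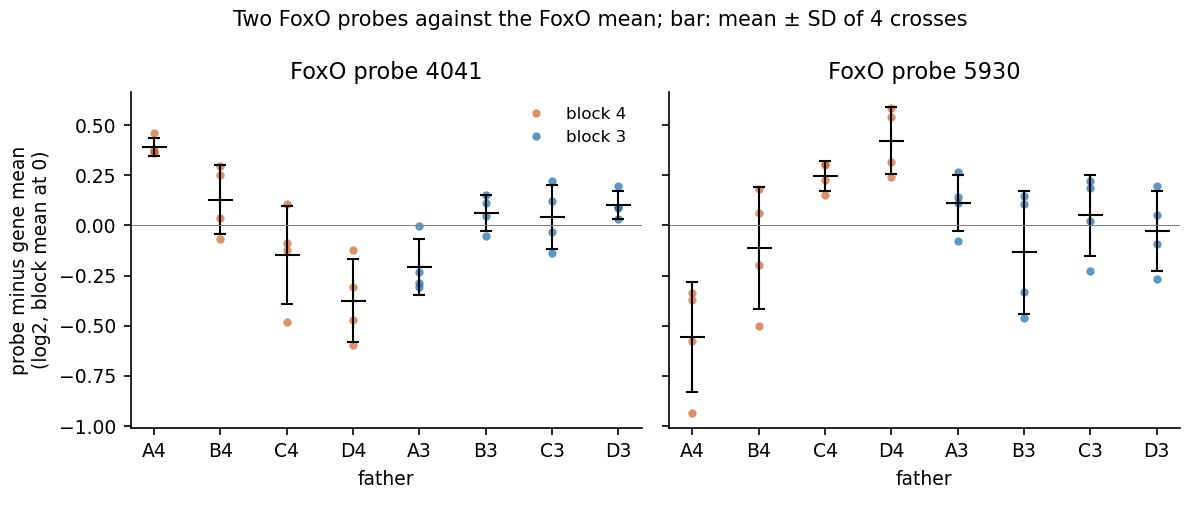
FoxO probes 4041 and 5930 minus the FoxO mean of the same array (log2, block mean at 0) by father, block 4 left of block 3, with 1 point per cross and the mean ± SD of 4 crosses. Probe 4041 is highest in father A4's crosses and lowest in D4's (0.39 and -0.37), and probe 5930 is the reverse (-0.55 and 0.42).

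FoxO was not called for temperature. Its medians were -0.06 at 12C, 0.01 at 15C and -0.01 at 18C, and its cultures ran from -0.74 to 1.23 over the 3 temperatures. At 18C against 12C the difference was 0.10 ± 0.05 (95% interval 0.01 to 0.20, adjusted p = 0.124), higher in 21 of 32 crosses. With the non-normalized values it was 0.12 ± 0.05 with array medians removed (adjusted p = 0.0291) and 0.11 ± 0.04 after quantile normalization within plate (adjusted p = 0.0401), both past the threshold. With plate row as a term it was -0.16 ± 0.14. Its 6 probes lay between 0.04 ± 0.04 (probe 3498) and 0.28 ± 0.11 (probe 5930, adjusted p = 0.0887) at 18C against 12C. Over the 96 cross-by-temperature means, with array medians removed and blocks centred, the FoxO probe pairs correlated with a median r of 0.388. These r ran from 0.07 for 4041 with 5930 to 0.707 for 5394 with 6123 and are a description.

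Foxn2-3 as a gene mean was not called for temperature. Its cultures had medians of -0.04 at 12C, -0.04 at 15C and -0.01 at 18C. At 18C against 12C the difference was 0.00 ± 0.03 (95% interval -0.06 to 0.06, adjusted p = 0.975) and at 15C against 12C -0.02 ± 0.03 (adjusted p = 0.819). With the non-normalized values and array medians removed it was -0.09 ± 0.03 (adjusted p = 0.0157), past the threshold.

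The 2 exon 1 probes of Foxn2-3 followed each other. With array medians removed and blocks centred, probes 5076 and 5285 correlated at r = 0.738 over the 96 means. The other 14 pairs lay between -0.26 and 0.28, the exon 6 pair 5052 and 6131 at 0.065. Both exon 1 probes were detected in 100% of cultures. The exon 6 probes were detected in 7.37% (5052) and 31.6% (6131) of block 4 and 6.25% and 44.8% of block 3 cultures. Probe 720, detected in at least 98.9%, had r = -0.00 with 5076 and 0.28 with 5285. The parts of low signal and of the removed array median in these r were not tested. Probe 5076 had a median of 0.05 at 12C, 0.03 at 15C and -0.06 at 18C, with cultures from -0.65 to 0.49. It fell by 0.12 ± 0.03 at 18C against 12C (adjusted p = 0.00233 over 336 probes, lower in 25 of 32 crosses) and by 0.09 ± 0.03 at 18C against 15C (adjusted p = 0.0395; 3.57% of probes called, 2.68% lower and 0.893% higher). Probe 5285 differed by -0.10 ± 0.04 at 18C against 12C (adjusted p = 0.085, lower in 23 of 32). The exon 8 probe 5177 differed by 0.16 ± 0.10 (adjusted p = 0.327) and the exon 7 probe 720 by 0.08 ± 0.07 (adjusted p = 0.471).

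With the probes of each gene and exon averaged, a fit chosen after seeing the data, exon 1 of Foxn2-3 fell by 0.11 ± 0.03 at 18C against 12C (adjusted p = 0.00627 over 185 gene-and-exon features; 13.0% called, 7.03% lower and 5.95% higher). Exon 6 differed by -0.00 ± 0.06, exon 7 by 0.08 ± 0.07 and exon 8 by 0.16 ± 0.10, none called. Against the gene mean of the same array, probe 5076 differed by -0.12 ± 0.04 at 18C against 12C (adjusted p = 0.0555). In this contrast 3.87% of deviations were called, 2.68% lower and 1.19% higher. A temperature difference between this exon 1 probe and the gene mean therefore did not pass the threshold. Between sires, the deviations of both exon 1 probes were called (adjusted p = 0.00684 for 5076 and 0.00498 for 5285), where 36.9% of deviations were. Without replicate 2 the change of probe 5076 at 18C against 12C was -0.08 (adjusted p = 0.228), and with plate row as a term it was -0.11 ± 0.07 (adjusted p = 0.501). It was -0.13 in block 4 and -0.11 in block 3. Its call at 18C against 15C was lost under 21 of 30 alternatives.

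Foxn2-3 varied with both parents, over ranges near the panel medians in 3 of 4 sets of parents. The dam effect had F = 4.28 (adjusted p = 0.00918; 81.1% of genes called) and the sire effect F = 6.48 (adjusted p = 0.002; 75.7% called). In block 4, fathers C4 and D4 averaged 0.07 each, B4 -0.05 and A4 -0.09, a range of 1.12-fold (panel median 1.12-fold), and mothers spanned 1.08-fold (panel median 1.13-fold). In block 3, fathers spanned 1.13-fold (panel median 1.12-fold) with C3 highest at 0.09, as C3 was for 62 of 74 genes, and mothers spanned 1.12-fold (panel median 1.11-fold). Both effects were called at 15C (dams adjusted p = 0.00579, sires 0.0218) and neither at 12C or 18C. Foxn2-3 was not called by the dam-by-temperature test (F = 1.21, adjusted p = 0.731) or the sire-by-temperature test (F = 0.84, adjusted p = 0.996). Of all genes, 45.9% were called for dams at 15C, against 21.6% at 12C and 14.9% at 18C, and for sires 9.46% at 15C, 9.46% at 12C and 16.2% at 18C. The sire call depended on which probes were used. With the 4 probes detected in most cultures of both plates it was lost (F = 1.53, adjusted p = 0.227), and exon 6 alone had F = 10.3 (adjusted p = 0.000194), against F = 1.69 for exon 1 (adjusted p = 0.2; 58.4% of gene-and-exon features called). Without replicate 2 it was also lost (F = 2.00, adjusted p = 0.257). Probe 5052, detected in under 8% of cultures, had a sire F of 13.9 (adjusted p = 8.19e-05). The dam call was lost without either replicate (adjusted p = 0.218 without replicate 1 and 0.194 without replicate 2) and without female C3 (0.0605).

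None of the 3 genes was called for culture stage. For each 0.1 of stage score, FoxB changed by 0.02 ± 0.04 (95% interval -0.05 to 0.09), Foxn2-3 by 0.02 ± 0.03 (-0.04 to 0.07) and FoxO by 0.00 ± 0.04 (-0.08 to 0.09), with adjusted p of 0.861, 0.861 and 0.991. Of the panel, 1.35% was called, which was the gene deadringer.

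How far the 3 genes varied together depended on the scale. With each array's median over all genes removed and each block centred, the 96 cross-by-temperature means of FoxB and FoxO correlated at r = -0.05, FoxB and Foxn2-3 at 0.225, and FoxO and Foxn2-3 at -0.225. On the values as normalized, which keep what all genes of an array have in common, the same pairs stood at 0.197, 0.414 and 0.202, so the sign of each FoxO pair turned. By the first measure Foxn2-3 was the fifth most like gene to FoxB. These r share arrays and are descriptions. With array medians removed, the panel genes most like FoxO were gsc, a homeobox gene of the oral ectoderm (r = 0.719), SM32, a spicule matrix gene (0.692), and FoxA, a forkhead gene of the gut (0.661). Those most like FoxB were CyclinT (0.380), Gsk-3, a kinase of the Wnt pathway (0.325), and VEGFR-10-Ig, a receptor gene of the skeletogenic cells (0.294). For Foxn2-3 they were Endo16, a gut gene (0.435), CyclinT (0.418) and Su(H), the Notch pathway's DNA-binding factor (0.369). The Foxn2-3 values were 0.168, 0.145 and 0.260 in block 3 and 0.517, 0.504 and 0.403 in block 4. FoxB with CyclinT stood at 0.232 in block 3 and 0.434 in block 4. With Gsk-3 and VEGFR-10-Ig FoxB was higher in block 3 (0.403 and 0.438) than in block 4 (0.293 and 0.263).

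Of the 5 forkhead genes on the panel (FoxA, FoxB, FoxG, Foxn2-3 and FoxO), FoxB was the 1 called for temperature. At 18C against 12C 17.6% of all genes were called, so 1 of 5 is near that share. At 15C against 12C 4.05% of all genes were called. FoxA differed by 0.02 ± 0.04 at 18C against 12C (adjusted p = 0.822) and FoxG by 0.02 ± 0.03 (adjusted p = 0.749). All 5 were called for dams, where 81.1% of genes were, and 3 (FoxB, FoxG and Foxn2-3) for sires, where 75.7% were. Of the 14 measured of 17 listed skeletogenic regulators, FoxB and the ETS gene Erg (-0.15 ± 0.04, adjusted p = 0.0133) were lower at 18C than at 12C and none was called higher, with a median over the list of 0.01 against 0.02 over all genes. The panel had 17.6% of genes called in this contrast, 6.76% lower. The 2 of 14 are near the share called in either direction and above the share called lower, a gap that was not tested. Of these 14 genes, 13 were called for dams and 11 for sires, where 81.1% and 75.7% of all genes were. The list holds the 3 genes themselves and was drawn up with earlier results of these data known.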

How the data were processed

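Expression was read with a custom Illumina DASL panel from total RNA of gastrula cultures, where the submitters' processing notes name BeadStudio. The authors' deposited normalized values are on a log2 scale, as read from the values, centred on 0 per probe within a plate, and the normalization method is not given in the sources used here. The deposited non-normalized values, also read as log2 intensity, served for detection and alternatives. 1 array column that matched no sample was not used.

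Gene values were means of a gene's probes. limma (R 4.3.3, limma 3.58.1) gave temperature contrasts and the block-by-temperature F on the means of 96 combinations of cross and temperature, blocked by cross. Dam and sire F tests used 32 cross means. The stage slope, and the alternatives with plate row as a term or the replicate number as a block, used all 191 cultures. Fits on 336 probes, on probe minus gene mean, and on gene-and-exon means followed the same designs. P-values were adjusted by Benjamini-Hochberg over all features, at a threshold of 0.05. The labels name the cultures of a combination replicates, without saying whether they were separate fertilizations. Variance shares came from lme4 1.1.37. The number of arrays limits the precision. The scripts were tested on simulated data. FoxB, FoxO and Foxn2-3 and the lists were chosen with earlier results of these data known, and all of their probes are named, with the 3 panel genes of highest r for each. No member matched a symbol of the reference gene table, so names are those of the files. The alternatives were other normalizations, probe summaries, covariates, single blocks, and cultures or parents left out.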

Additional observations from a re-analysis of the deposited data

Results flagged for a closer look

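FoxB was singled out because its temperature response differed between block 4 and block 3 (F = 5.22, adjusted p = 0.0487). Foxn2-3 probe 5052 was singled out because its temperature response differed between dams (F = 4.97, adjusted p = 0.0217), the only one of 336 probes called by that test (0.298%). Probe 5052 in mother A4's crosses stood at -0.31 ± 0.44 at 12C, then 1.02 ± 0.46 at 15C and 0.24 ± 0.61 at 18C (mean log2 value, SD, n = 4 crosses), while the other mothers' means lay between -0.43 and 0.24 at all temperatures. This probe was detected in 7.37% of block 4 and 6.25% of block 3 cultures, and the part of low signal in the result was not tested.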

How the results depend on the processing

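Of 32 alternatives, 25 kept the call of FoxB at 18C against 12C (range -0.36 to -0.050), and its direction held in all 32. With single parents left out FoxB differed by -0.23 to -0.13, and with either replicate left out by -0.24 to -0.14. It was -0.050 in block 3 alone, -0.13 by the brightest probe and -0.36 with plate row as a term. At 15C against 12C 9 of 32 kept the call. FoxB was then -0.16 in block 3 alone, -0.17 in block 4 alone, -0.15 with stage as a covariate, -0.15 by the brightest probe, -0.39 with plate row, -0.15 by detected probes, -0.16 without the 10 arrays of most distant median and -0.17 without the cross as a block, with -0.19 to -0.14 over parents and -0.23 to -0.092 over replicates. The block F of FoxB lost its call by the median of probes (5.15), with non-normalized array medians removed (3.67), non-normalized quantiles (6.98), normalized array medians removed (5.56) and detected probes (4.36), and ran from 2.57 to 8.55 over parents and 3.97 to 4.99 over replicates. The dam F of FoxB was 3.21 to 3.25 over replicates, and its sire F 3.13 in block 3 alone, where the call was lost.

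FoxO at 18C against 12C passed the threshold with non-normalized array medians removed (0.12) and quantiles (0.11) and was -0.16 with plate row. At 15C against 12C it was -0.22 with plate row and -0.026 to 0.11 over replicates. Its dam F was 1.29 in block 3 alone, not called. Its sire F was called in block 3 alone (4.26), by the median of probes (2.93) and without male B4 or C4, the highest F over parents being 4.20, with 0.591 to 1.11 over replicates. Foxn2-3 at 18C against 12C turned sign in block 4 alone (-0.0095), by the brightest probe (-0.10), exon 1 probes (-0.11), median of probes (-0.015), non-normalized array medians removed (-0.087), quantiles (-0.042), normalized medians removed (-0.014) and plate row (-0.069), with -0.012 to 0.027 over parents and -0.017 to 0.022 over replicates. Its dam F lost its call in block 4 alone (3.54), by the brightest probe (2.64), exon 1 probes (2.65), non-normalized medians removed (1.42) and without either replicate (1.76 to 1.81). Over parents it ran from 2.82 to 6.56 and lost its call in 1 of 16, without female C3. Its sire F was 1.69 for exon 1 probes and 1.53 for detected probes, both not called, with 4.50 to 9.27 over parents and 2.00 to 3.64 over replicates. The causes were not tested.

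Differences between 18C and 15C that were not called turned sign for FoxB in block 3 alone (0.11), by the brightest probe (0.019), the median (0.025) and plate row (0.036), with -0.062 to 0.031 over parents. They did so for FoxO by the brightest probe (-0.0084), with -0.063 to 0.18 over replicates, and for Foxn2-3 in block 4 alone (-0.0076), by the brightest probe (-0.066), exon 1 probes (-0.080), the median (-0.0087), non-normalized medians removed (-0.014) and quantiles (-0.0021). Stage slopes per unit of score, none called, turned sign for FoxB with non-normalized medians removed (-0.10), quantiles (-0.015) and plate column means removed (-0.20), with -0.044 to 0.58 over parents and -1.12 to 1.42 over replicates. FoxO slopes did so in block 4 alone (-0.39), by the median (-0.25), non-normalized medians removed (-0.20), quantiles (-0.14), normalized medians removed (-0.073), with a replicate block (-0.0063), sampling time (-0.062) and within combinations (-0.89), with -0.27 to 0.54 over parents and -0.31 to 0.17 over replicates. Foxn2-3 slopes did so with non-normalized medians removed (-0.017), plate column means removed (-0.064) and detected probes (-0.031), with -0.020 to 0.33 over parents and -0.50 to 0.58 over replicates.

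With the replicate number as a block FoxB differed by -0.19 at 18C against 12C (adjusted p = 0.000852), and the block changed no call of the 3 genes in the contrasts fitted. In 94 pairs of temperatures the replicate differences correlated with a mean r of 0.0202, 35 of them above 0.1, so the numbers are not taken to pair cultures. The count of genes called at 18C against 12C, 13 (8 higher and 5 lower), was 28 (10 and 18) with non-normalized medians removed, 22 (11 and 11) with quantiles, 23 (11 and 12) with normalized medians removed and as low as 2 with plate row. Over alternatives it was 0 to 5 at 15C against 12C (3), 0 to 8 at 18C against 15C (3), 0 to 18 for block (12), 25 to 67 for dams (60), 10 to 57 for sires (56) and 0 to 6 for stage (1). Low signal limits FoxB probe 4974 and Foxn2-3 probes 5052 and 6131 most.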
